A study of Mus musculus with 2 samples.

Results

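Selenoproteins carry selenocysteine, an amino acid that is read from UGA, a codon that elsewhere ends translation. The ribosome reads it as selenocysteine when a hairpin in the 3′ untranslated region of the same mRNA recruits the insertion factors. Many of these proteins are redox enzymes that place the selenocysteine in their active site, among them the glutathione peroxidases, which remove hydrogen peroxide and lipid peroxides, and the thioredoxin reductases. Steroid synthesis in adrenal mitochondria produces reactive oxygen, and the gland is known for retaining selenium when the supply is low.

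The 10 genes described here were chosen by name: Gpx1, Gpx3, Gpx4, Selenop, Selenow, Selenof, Selenok, Selenot, Txnrd1 and Txnrd2. They are 10 of the 24 genes for which GENCODE M21, the annotation the files use, marks a selenocysteine codon, and 10 of 18111 annotated genes with at least 1 read in either library. RNA of adrenal gland from 14-day-old female B6CASTF1/J mice, an F1 cross of a C57BL/6 and a CAST parent, was sequenced as long reads in 2 libraries, biological replicates 1 and 2 of the only group. No treatment, allele or agent is given, and there is no control group, so all comparisons are between these libraries. By its tissue name replicate 1 comes from 3 females and replicate 2 from 1, but the descriptions of both libraries mention 3. Whether a pool is compared with a single animal is therefore not settled by the labels. Both tissue samples carry the same donor identifier, the labels do not say whether the libraries came from separate animals, and p-values measure only the difference between these libraries.

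Replicate 1 held 1143111 reads, 1065570 of them in annotated genes, and replicate 2 held 991731 and 946553. Levels are given as CPM, reads of a gene per 1000000 reads in annotated genes. A long read counts once whatever its length, so CPM was not divided by transcript length. The adrenal markers fixed for the check were present in both libraries: as shares of the gene reads, 6 cortical genes summed to 5.41% (replicate 1) and 2.42% (replicate 2), and 6 chromaffin genes to 1.16% and 0.448%, and all 12 were lower in replicate 2 by the exact test described with the levels. In replicate 2, 8 of 8 hepatocyte genes were higher, with a summed share of 0.0429% in replicate 1 and 4.87% in replicate 2. Skeletal muscle genes rose from 0.00535% to 0.153% (4 of 4 tested higher), while 5 of 5 erythroid genes were lower, at 1.13% and 0.362%. Adipocyte genes held 0.674% and 0.774% (2 of 5 higher) and leukocyte genes 0.0171% and 0.0289% (2 of 5 tested higher). Of all genes tested, 8.58% were higher and 17.9% lower in replicate 2. Of 7 kidney tubule genes, 6 had 0 reads in both libraries (Kap, Slc34a1, Umod, Slc22a6, Slc12a1 and Miox). Fewer cells of a type and less RNA per cell cannot be told apart in such tissue RNA.

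In the mm10 annotation the peroxidase genes are Gpx1 (ENSMUSG00000063856.7, chr9:108338903-108340343, plus strand), Gpx3 (ENSMUSG00000018339.11, chr11:54902453-54910377, plus strand) and Gpx4 (ENSMUSG00000075706.10, chr10:80047166-80056439, plus strand). The reductase genes are Txnrd1 (ENSMUSG00000020250.10, chr10:82833951-82897712, plus strand) and Txnrd2 (ENSMUSG00000075704.16, chr16:18426384-18479073, plus strand). Selenop (ENSMUSG00000064373.12, chr15:3268547-3280508, plus strand) encodes the plasma carrier of selenium. The remaining genes encode small selenoproteins, several of them in the endoplasmic reticulum. They are Selenow (ENSMUSG00000041571.9, chr7:15917208-15922402, minus strand), Selenof (ENSMUSG00000037072.15, chr3:144570304-144597680, plus strand), Selenok (ENSMUSG00000042682.9, chr14:29968308-29975662, plus strand) and Selenot (ENSMUSG00000075700.9, chr3:58576636-58593133, plus strand).

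The selenocysteine codon itself is the feature that the genes share, and its surroundings differ in where the codon falls. The reference sequence around it (GENCODE M21 transcripts, mm10, from the C57BL/6 genome) is given here for the annotated form with most reads, with the codon in capitals and up to 15 bases on each side. For Txnrd2 the full-length annotated form Txnrd2-203 was used, and for Selenop the first of its 10 codons is shown.
Gpx1: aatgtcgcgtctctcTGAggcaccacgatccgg
Gpx3: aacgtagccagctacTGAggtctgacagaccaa
Gpx4: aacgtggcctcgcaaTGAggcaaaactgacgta
Selenop: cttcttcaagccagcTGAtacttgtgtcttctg
Selenow: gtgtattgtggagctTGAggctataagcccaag
Selenof: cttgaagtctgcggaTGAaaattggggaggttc
Selenok: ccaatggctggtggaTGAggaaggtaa
Selenot: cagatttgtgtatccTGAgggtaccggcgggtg
Txnrd1: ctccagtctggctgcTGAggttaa
Txnrd2: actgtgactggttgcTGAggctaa

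In the glutathione peroxidases the codon lay early in the coding sequence, at codon 47 of 201 in Gpx1, 73 of 226 in Gpx3 and 73 of 197 in Gpx4. Of the 30 flanking bases shown, Gpx1 and Gpx4 had 16 in common, Gpx3 and Gpx4 17, and Gpx1 and Gpx3 13. In the thioredoxin reductases it was the last codon but 1, codon 498 of 499 in Txnrd1 and 526 of 527 in Txnrd2, and 13 of 21 flanking bases were the same. Selenok also had it near the end, at codon 92 of 94. Selenow, Selenof and Selenot carried it at codons 13 of 88, 93 of 162 and 49 of 195. Selenop, the plasma protein that carries selenium between organs, had its first at codon 59 of 380 and the other 9 in the last exon.

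A UGA upstream of the last exon junction is the position at which an unread codon is known to expose an mRNA to nonsense-mediated decay. In 9 of the 10 genes the only or first selenocysteine codon was in an exon before the last, the exception being Txnrd1. In 8 of them it lay at least 50 bases upstream of the last junction, from 78 bases in Selenof to 470 in Selenot, and Selenok had 5 bases. Models that covered the codon held at least 89.4% of the reads of every gene but Selenot in both libraries. For Gpx4 they held 98.4% and 99.5%, for Gpx3 89.4% and 92.4%. For Selenot they held 6 of 19 reads (31.6%, exact 95% interval 12.6 to 56.6%) and 9 of 14 (64.3%, 35.1 to 87.2%), and the intervals overlap. Coverage was taken from model exons. Models that match an annotated transcript carry its ends, so how far each read reached was not measured.

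By the mean of both libraries the genes fell into 3 levels. Selenop (1093 ± 1179 CPM, SD, n = 2 here and below), Gpx4 (808 ± 177), Gpx1 (640.3 ± 194) and Gpx3 (600.0 ± 43.3) came first. Selenok (176 ± 56.3), Selenow (176 ± 19.8), Txnrd1 (151 ± 18.3), Selenof (147 ± 26.4) and Txnrd2 (136 ± 25.2) followed, and Selenot (16.3 ± 2.15) was last. Within the first 4 and within the next 5, the libraries of neighbours in this order overlapped. They did not overlap between Gpx3 and Selenok or between Txnrd2 and Selenot. Selenop came first by its level in replicate 2. In replicate 1 it had 259 CPM (exact 95% interval 229 to 291), below Gpx3 at 631 CPM. That interval overlapped the one of Selenok in the same library (216 CPM, 189 to 246). Together the genes had 3444 reads in replicate 1, a share of 0.323% (exact 95% interval 0.313 to 0.334%), and 4405 in replicate 2, a share of 0.465% (0.452 to 0.479%). The 3 glutathione peroxidases made up 63.9% of these reads in replicate 1 and 43.6% in replicate 2, and Selenop 8.01% and 41.4%. Without Selenop the other 9 genes summed to 2973 CPM and 2727 CPM.

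**Figure D1:**
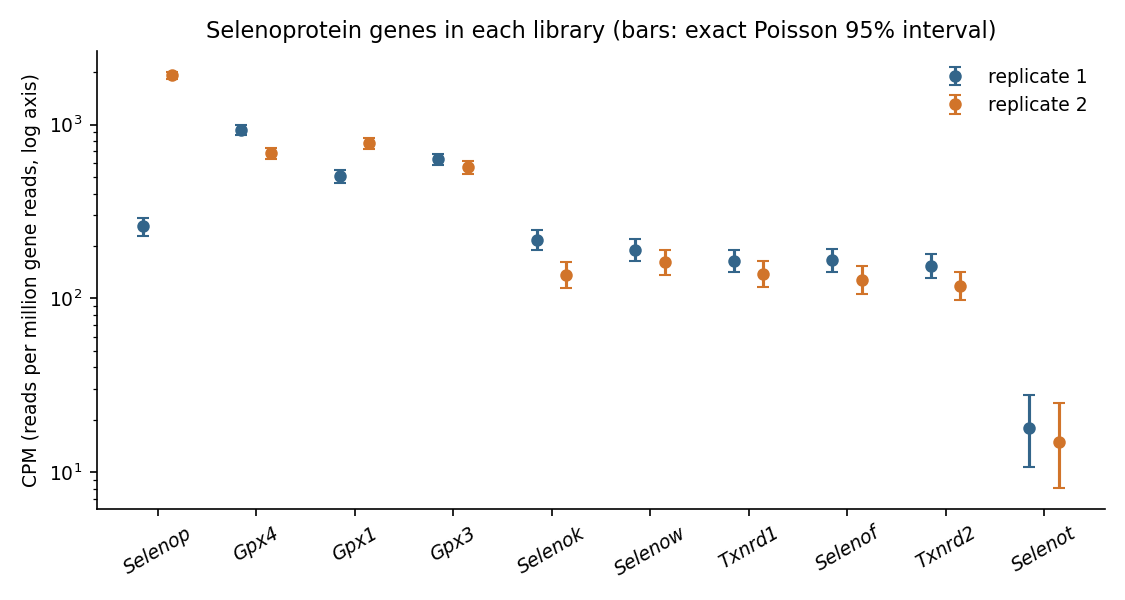
CPM of the 10 selenoprotein genes on a log axis, in the order of their mean, with 1 point for each library and bars for the exact Poisson 95% interval. Selenop moves from 259 CPM in replicate 1 to 1927 CPM in replicate 2, while Selenot stays below 20 CPM in both.

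The comparison of the libraries asks how closely a second library repeats these levels. Of the 10 genes, 2 were higher in replicate 2, 2 were lower and 6 did not pass an exact conditional binomial test with Benjamini-Hochberg adjustment over 9211 genes. Of all genes tested, 26.4% passed, 8.58% as higher and 17.9% as lower, and the 4 of 10 here are read against that background. The share of calls that were higher was 32.4% with gene reads as the scale, 63% with TMM sizes, 62.1% with DESeq2 size factors and 92.4% with spike-in reads. The median log2 ratio of all genes, replicate 2 over replicate 1, was -0.28, against -0.03, -0.04 and 0.31 under these other scales. The median of the 10 genes was -0.25. When replicates were assumed to vary by a coefficient of variation of 0.2, Selenop alone of the 10 passed (edgeR exact test, adjusted p = 5.05e-09).

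Selenop had 276 reads in replicate 1 and 1824 in replicate 2. At 259 CPM (exact 95% interval 229 to 291) and 1927 CPM (1839.6 to 2018), it went from rank 707 among genes to rank 40. The 7.43-fold higher level was a log2 ratio of 2.89 (SE 0.093, adjusted p = 2.01e-318, exact binomial test), 3.17 above the median of all genes, and was a call under all 4 scales. Selenop is known as a product chiefly of the liver, and the 8 hepatocyte genes counted above had a median log2 ratio of 6.81 between the same libraries. Their part in the Selenop difference was not tested.

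Gpx1, the cytosolic glutathione peroxidase, was read 536 and 736 times. Its levels of 503 CPM (461 to 547) and 778 CPM (722 to 836) do not overlap within counting error. The log2 ratio was 0.63 (SE 0.082, adjusted p = 2.54e-13, exact binomial test), higher under all 4 scales and not a call with the assumed spread (edgeR exact test, adjusted p = 0.671). Gpx3, the secreted plasma peroxidase, had 672 and 539 reads, 631 CPM and 569 CPM. Its log2 ratio of -0.15 (SE 0.083, adjusted p = 0.193, exact binomial test) turned to 0.10 with TMM or DESeq2 scaling and to 0.44 with spike-in scaling, where it passed (adjusted p = 1.97e-06). Gpx4, which reduces lipid peroxides within membranes, had 994 and 646 reads, 933 CPM and 682 CPM. It was 1.37-fold higher in replicate 1, with a log2 ratio of -0.45 (SE 0.073, adjusted p = 7.73e-09, exact binomial test) that became 0.14 (adjusted p = 0.176) with spike-in reads as the scale. A Gpx4 pseudogene, Gpx4-ps2, drew 79 and 44 reads of its own. The sequences were not compared, and the split of reads between gene and pseudogene is uncertain.

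Selenok, an endoplasmic reticulum membrane protein, fell from 230 reads (216 CPM) to 129 reads (136 CPM). The log2 ratio was -0.66 (SE 0.158, adjusted p = 0.000193, exact binomial test), a call with gene reads as the scale. It was a call only just under the 0.05 threshold with TMM (-0.41, adjusted p = 0.048) or DESeq2 scaling (-0.42, 0.0478, exact binomial test). With spike-in reads it was not a call (-0.07, adjusted p = 0.844). Selenow, a small thioredoxin-like protein, gave 202 and 153 reads, 189.6 CPM and 162 CPM. Selenof, which works with glycoprotein folding in the endoplasmic reticulum, gave 176 and 121 reads, 165 CPM and 128 CPM. Neither passed the exact binomial test, with log2 ratios of -0.23 (SE 0.154, adjusted p = 0.308) and -0.37 (SE 0.170, adjusted p = 0.0978). Selenot, another thioredoxin-like protein of that compartment, had 19 and 14 reads, and its log2 ratio of -0.26 had an SE of 0.50 and did not pass (exact binomial test, adjusted p = 0.857).

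The cytosolic reductase Txnrd1 had 175 and 131 reads, 164 CPM and 138 CPM. Its mitochondrial relative Txnrd2 had 164 and 112 reads, 154 CPM and 118 CPM. Their log2 ratios were -0.25 (SE 0.166, adjusted p = 0.309, exact binomial test) and -0.38 (SE 0.177, adjusted p = 0.105), neither a call, and relative to the median of all genes they were 0.03 and -0.10.

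**Figure D2:**
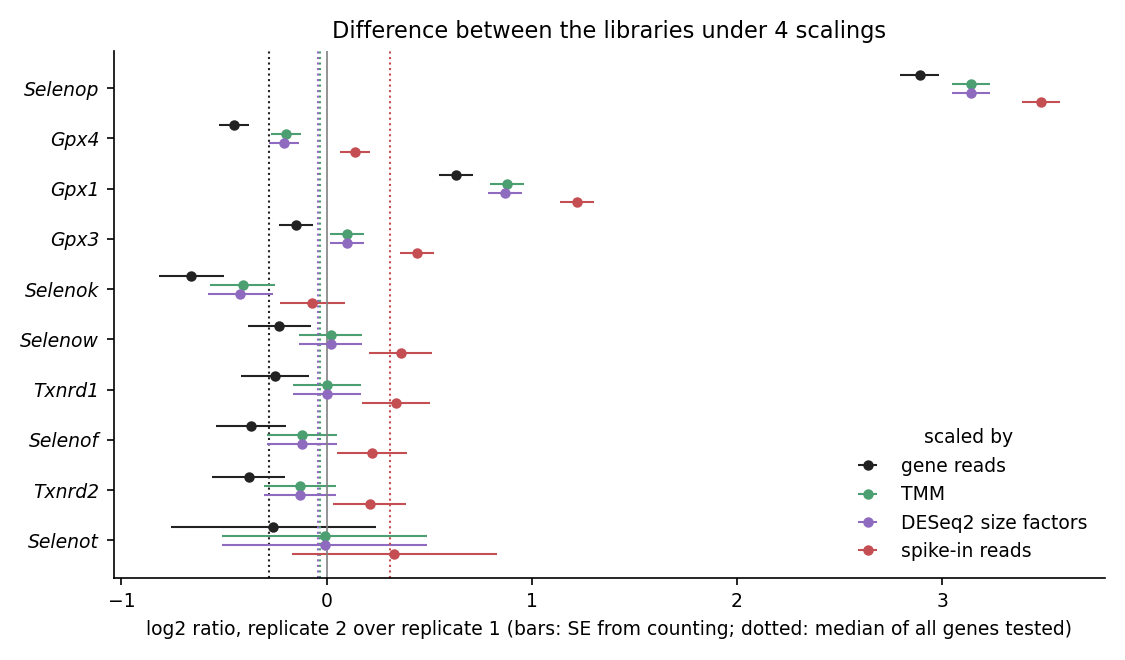
Log2 ratio of replicate 2 over replicate 1 for the 10 genes under 4 scales (colours), with bars for the SE from counting and dotted lines at the median of all genes tested. Selenop (2.89) and Gpx1 (0.63) lie right of 0 under every scale, while 8 genes lie left of 0 with gene reads and all of these but Selenok (-0.07) move right of 0 with spike-in reads.

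The next question was which form of each gene the reads represent. The files name a model Known when it matches an annotated transcript, ISM (incomplete splice match) when it contains just a section of the introns of an annotated transcript, NIC when it joins annotated splice sites in an unannotated order, NNC when a splice site is unannotated, and Genomic when it overlaps a gene without matching its splicing. Known models held between 84% and 99.2% of the reads of 8 genes in both libraries. In Txnrd2 they held 4.27% (7 of 164 reads) and 3.57% (4 of 112), and in Selenot 21.1% (4 of 19) and 42.9% (6 of 14). The median over all 5969 genes tested was 81% in replicate 1 and 83.2% in replicate 2.

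The libraries divided each gene among its forms with no difference past the tests. The share of Known models differed in 0 of 9 genes (Fisher's exact test, Benjamini-Hochberg), where 0.637% of all genes tested passed. The share of the leading chain of introns differed in 0 of 9, where 0.558% of all genes passed, and that of the leading first exon in 0 of 5, where 0.967% passed. At an unadjusted p under 0.05 the counts were 0, 0 and 1. That 1 was Selenop, whose leading first exon held 98.1% of reads with an annotated first exon in replicate 1 and 99.7% in replicate 2 (Fisher's exact test, p = 0.00857, adjusted p = 0.405).

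**Figure D3:**
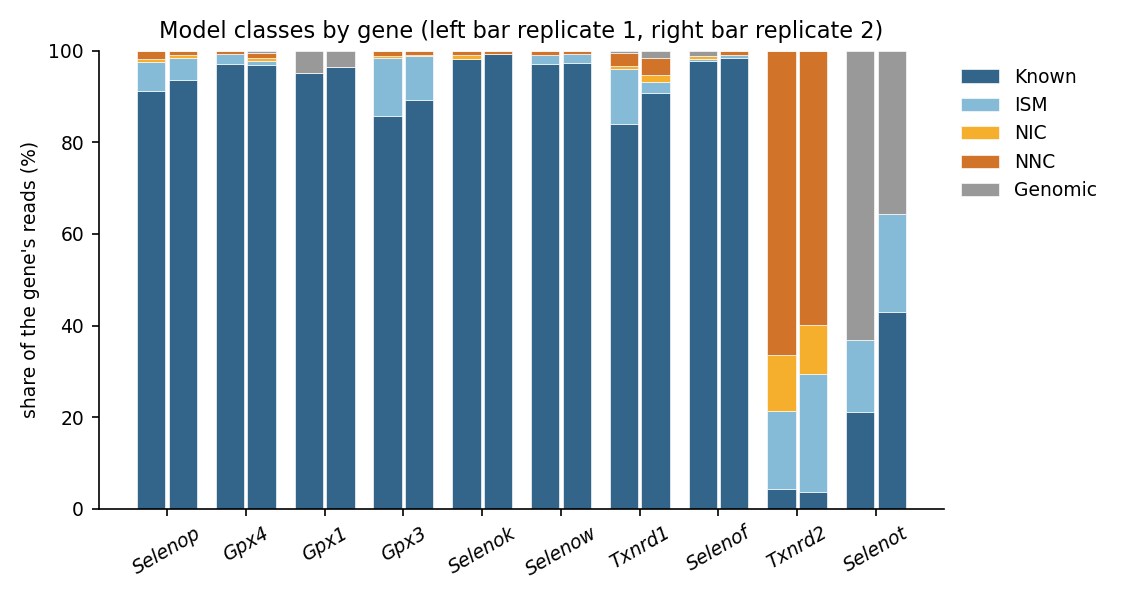
Share of each gene's reads by model class, in percent, with replicate 1 on the left and replicate 2 on the right of each pair. Known models fill most of every bar except those of Txnrd2 (4.27% and 3.57%) and Selenot (21.1% and 42.9%), where NNC and Genomic models take most of the rest.

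Most of the genes were read as nearly a single multi-exon form. Gpx1-201 held 502 of 506 multi-exon reads in replicate 1 and 701 of 707 in replicate 2, 99.2% in both. Selenok-201 held 98.3% and 99.2%, Selenof-201 98.9% and 98.3%, and Selenow-201 98% and 98.7%. Selenop-203 held 249 of 264 (94.3%) and 1703 of 1767 (96.4%), and Gpx3-201 576 of 618 (93.2%) and 478 of 507 (94.3%). Across all genes the median leading share was 79.9% and 81.3%. The same annotated form of Selenop led in both libraries, whose Selenop levels differed 7.43-fold. Its second annotated form, Selenop-201, differs in the first exon, has the same coding sequence and held 3 reads in each library.

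Single-exon models held much of the remainder in several genes, and those of Gpx3, Selenop and Gpx1 given here lie in the last exon. In Gpx3 an ISM model of 919 bases held 54 and 32 reads, 8.04% and 5.94%. In Selenop such models held 12 and 57 reads, 4.35% and 3.12%, and a Genomic model of 542 bases in Gpx1 held 26 in each library. In Selenot, whose annotated form has 3157 bases, single-exon models held 12 of 19 reads and 5 of 14, more than Selenot-201 in replicate 1 (4 reads) and fewer in replicate 2 (6), and a 5-exon ISM model held 2 and 3. A read that ends before the 5′ end of its RNA and a transcript that starts there cannot be told apart in these files.

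Gpx4 is known for 3 protein forms from 1 gene, a mitochondrial form with a leader peptide, a shorter cytosolic form, and a nuclear form from another first exon. The start codons of the mitochondrial and cytosolic forms both lie in the first exon of Gpx4-202 (chr10:80053488-80053715, plus strand, mm10), at chr10:80053632 and chr10:80053713. The reference stretch between them is shown because it is all that separates these forms, with both start codons in capitals.
Gpx4 (chr10:80053632-80053715): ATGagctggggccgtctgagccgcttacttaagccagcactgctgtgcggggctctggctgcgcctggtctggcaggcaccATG

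The codons are 81 bases, or 27 codons, apart and in the same frame, and they open proteins of 197 and 170 codons. Models with this first exon held 959 of 994 Gpx4 reads in replicate 1 (96.5%, exact 95% interval 95.1 to 97.5%) and 627 of 646 in replicate 2 (97.1%, 95.4 to 98.2%), a mean of 96.8% ± 0.41. The difference of 0.58 percentage points did not pass Fisher's exact test (two-sided, p = 0.573). Every one of these models began at chr10:80053488, the annotated start, 144 bases before the upstream start codon. Because these models carry the annotated start and not that of each read, transcripts for the mitochondrial and cytosolic forms cannot be told apart here.

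Gpx4-201, which opens with the first exon of the nuclear form and has 253 codons, held 1 read in replicate 1 and 0 in replicate 2. The nuclear form is known chiefly from sperm. Gpx4-207, whose first exon begins inside the intron that follows in Gpx4-202 and which has 157 codons, held 9 and 7 reads. That exon ends at the same base as the second exon of Gpx4-202, so reads of Gpx4-202 that begin there cannot be told from Gpx4-207. Gpx4-203, a short retained-intron form near the 3′ end, held 3 and 0. Gpx4-202 itself held 953 and 619, 96% and 96.3% of multi-exon reads.

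**Figure D4:**
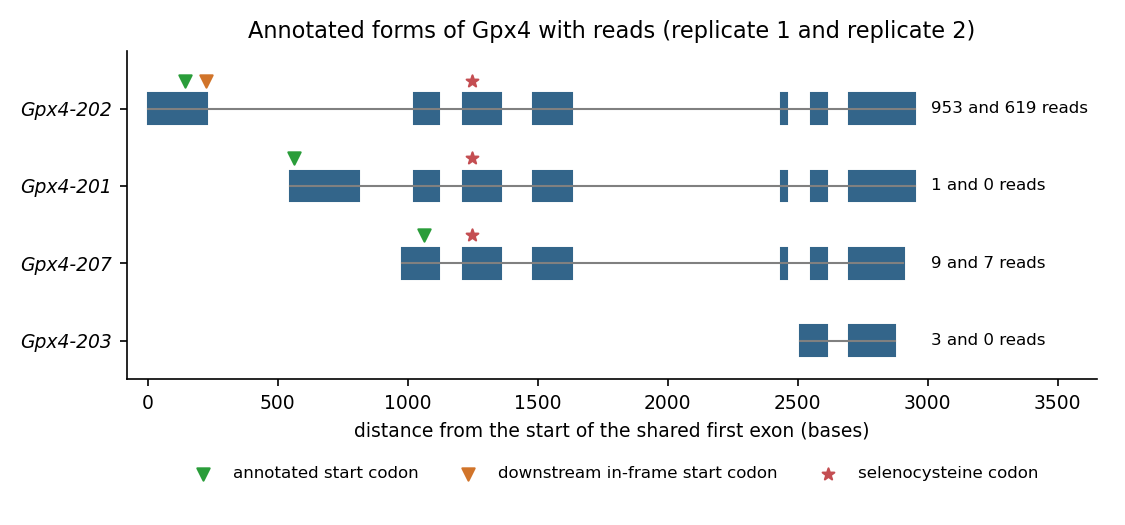
Exons (boxes) of the annotated Gpx4 forms with reads, by distance in bases from the start of the shared first exon, with start codons (triangles) and the selenocysteine codon (star) where annotated. Both start codons of Gpx4-202 lie in its first exon, and that form holds 953 and 619 reads against 1 and 0 for Gpx4-201, 9 and 7 for Gpx4-207 and 3 and 0 for Gpx4-203.

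Txnrd1 was divided among 3 annotated forms. Txnrd1-208, which has 15 exons, held 101 of 166 multi-exon reads in replicate 1 (60.8%, exact 95% interval 53 to 68.3%) and 89 of 129 in replicate 2 (69%, 60.3 to 76.8%), a mean of 64.9% ± 5.76. The intervals overlap, and the difference did not pass (Fisher's exact test, adjusted p = 0.911). Txnrd1-206 held 37 and 23 reads, and Txnrd1-201, which lacks the second exon of Txnrd1-208 (chr10:82860524-82860630), held 9 and 7. The first exon of Txnrd1-206 ends at the same base as that second exon of Txnrd1-208. Forms were matched by chain of introns, so reads of Txnrd1-208 that begin in its second exon cannot be told from Txnrd1-206. The 3 forms have the same coding sequence of 499 codons, which starts at chr10:82874649, and differ on both sides of it. In the annotation their last exon ends at chr10:82896605 in Txnrd1-208, at chr10:82897710 in Txnrd1-206 and at chr10:82897712 in Txnrd1-201. Txnrd1-208 is thus annotated with the shortest 3′ untranslated region of the 3. Known models carry the annotated ends, so where the reads on each form ended was not measured. Reads from the first exon that ends at chr10:82859300 made up 74.8% (116 of 155) and 80.6% (100 of 124) of those with an annotated first exon. The first exon of Txnrd1-206, which ends at chr10:82860630, made up the other 25.2% and 19.4%, with any such reads of Txnrd1-208 counted in. The 2 first exons kept this order in both libraries, and their shares did not differ past the test (Fisher's exact test, adjusted p = 1).

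Txnrd2 stood apart in that its leading form is not annotated. An NNC model of 17 exons held 102 of 162 multi-exon reads in replicate 1 (63%, exact 95% interval 55 to 70.4%) and 65 of 112 in replicate 2 (58%, 48.3 to 67.3%), a mean of 60.5% ± 3.48. Its introns are those of Txnrd2-203 except at 1 site. The full-length annotated form Txnrd2-203, with 527 codons, had 0 reads in both libraries. The only Known model was the 4-exon Txnrd2-206, with 7 and 4 reads. An ISM model of 8 exons, beginning in the exon chr16:18456024-18456198, held 17 and 18 reads. A NIC model of 16 exons, which has the same departure and also lacks the exon chr16:18472794-18472886, held 9 and 5. With that departure it would be NNC by the definitions above, so the class labels do not follow them in every model.

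At the site where the leading form departs, the annotation places a very small exon. Txnrd2-203 has 20 bases there, the exon chr16:18453721-18453740 on the plus strand, and Txnrd2-212 has 7 bases at chr16:18451971-18451977 and an exon that opens 13 bases earlier, again 20 in all. The reference transcripts are shown across the site, with these 20 bases in capitals, because no read joined them as annotated on both sides.
Txnrd2-203: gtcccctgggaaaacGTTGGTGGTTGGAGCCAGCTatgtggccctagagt
Txnrd2-212: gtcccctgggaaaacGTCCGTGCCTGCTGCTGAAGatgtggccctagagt

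The 2 annotated inserts have 9 of 20 bases in common, position by position. The deposited models instead joined chr16:18443286, 12 bases past the annotated exon end, to chr16:18454476, the exon start used in Txnrd2-212. This unannotated junction was used by 122 of 135 reads that span the site in replicate 1 (90.4%, exact 95% interval 84.1 to 94.8%) and 77 of 86 in replicate 2 (89.5%, 81.1 to 95.1%), chosen for counting after the models were seen. The path of Txnrd2-203 and that of Txnrd2-212 each had 0 reads, which allows up to 2.7% and 4.2%, and other paths had 13 and 9. Among the other paths, 3 reads in replicate 1 and 2 in replicate 2 were joined to the start of the small exon of Txnrd2-203, chr16:18453721, and ran on unspliced through the next exon, so they contain it. The junction leaves 25 bases between the flanking annotated sites against 20 in both annotated forms, a difference of 5, which is not a multiple of 3. The files give exon ends and no read sequence, so whether the reads on the unannotated junction held the small exon's bases was not tested. The selenocysteine codon of Txnrd2 lies downstream, and models covering it held 93.9% and 96.4% of the reads.

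**Figure D5:**
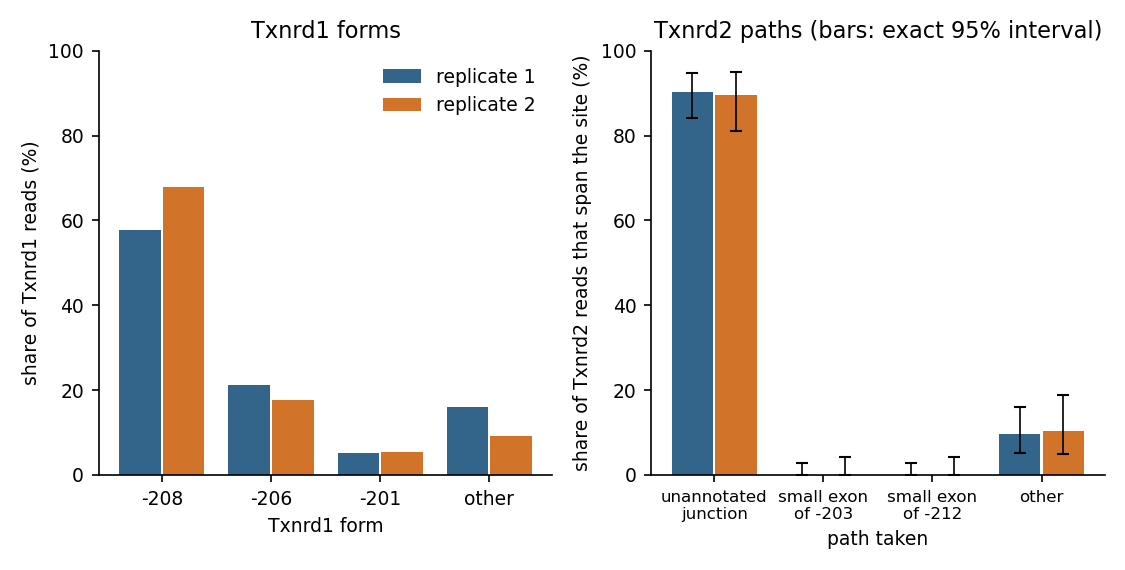
Left, share of Txnrd1 reads (percent) on its 3 annotated forms with reads and on all other models, by library. Right, share of Txnrd2 reads that span the small-exon site by path taken, with exact 95% intervals. The unannotated junction takes 90.4% and 89.5%, and the full annotated path through either small exon takes 0.

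Of the other 14 genes with an annotated selenocysteine codon, 10 had enough reads to test. Of these, 3 were higher in replicate 2, 1 was lower and 6 did not pass, with a median log2 ratio of -0.17, where 8.58% of all genes were higher and 17.9% lower. Sephs2, which makes the selenium donor and is itself a selenoprotein, had 614 and 1363 reads, a log2 ratio of 1.32 (SE 0.070, adjusted p = 5.71e-84, exact binomial test). Its levels of 576 CPM and 1440.0 CPM were within the range of the 4 most abundant of the 10 genes in each library. Dio1, a deiodinase that activates thyroid hormone, had 1 and 33 reads, a ratio of 37.1 with an exact counting interval of 6.22 to 1511. The methionine sulfoxide reductase Msrb1 had 27 and 49 reads (log2 ratio 1.02, adjusted p = 0.0133, exact binomial test), a call lost with Known models only (adjusted p = 0.0954) and with the assumed variation (0.484). Selenos, of the endoplasmic reticulum, fell from 213 to 110 reads (-0.78, adjusted p = 2.57e-05, exact binomial test), a call that neither spike-in scaling nor the assumed variation gave. Selenoo (126 and 97 reads) and Selenoh (59 and 43) did not pass. Gpx2 and Selenov had 0 reads in both libraries, at most 2.82 CPM in replicate 1 and 3.17 CPM in replicate 2, and Dio3 and Selenoi were below the minimum for the test.

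The genes listed around selenocysteine synthesis and insertion, not all of which carry out a step of it, summed to 989 reads in replicate 1 and 656 in replicate 2. Of 11, 10 were tested, 0 were higher and 2 lower, with a median log2 ratio of -0.34. Both are broad RNA-binding proteins, Eif4a3 (354 and 219 reads, -0.52) and Ncl (307 and 164 reads, -0.73), where 8.58% of all genes were higher and 17.9% lower. Under TMM or DESeq2 scaling Eif4a3 was no longer a call (adjusted p = 0.121 and 0.11, exact binomial test), and Eefsec and Scly were higher. With spike-in scaling Ncl was lost as well (adjusted p = 0.55), and the same 2 were higher. Sephs1 had 86 and 64 reads and Trnau1ap, which binds the selenocysteine tRNA, 66 and 37. Among receptors for Selenop uptake, Lrp8 had 2 reads in each library and Lrp2 0, while Lrp1 had 23 and 37 (0.85, adjusted p = 0.0882, exact binomial test). Lrp1 was a higher call under each of the other 3 scales, with log2 ratios of 1.09 (TMM, adjusted p = 0.0238), 1.09 (DESeq2, 0.0242) and 1.43 (spike-in reads, 0.00103, exact binomial test throughout).

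Relatives that carry cysteine in place of selenocysteine summed to 179 and 123 reads. Of 6, 4 were tested and 1 was lower, where 17.9% of all genes were. It was Gpx8, with 82 and 40 reads (-0.86, adjusted p = 0.0102, exact binomial test), a call lost with each of the other 3 scales. Msrb2 had 56 and 49 reads, Gpx7 24 and 16, and Msrb3 17 in each. Of 10 thioredoxin and glutathione partners, 2 were higher and 4 lower, with a median of -0.14, where 8.58% and 17.9% of all genes were. The mitochondrial pair Txn2 (810 and 470 reads, -0.61) and Prdx3 (728 and 389, -0.73) were lower with Txn1 (181 and 96, -0.74) and Gsr (145 and 85, -0.60). The glutathione genes Gclm (66 and 93, 0.66) and Glrx (44 and 64, 0.71) were higher. Gsr was not a call with TMM or DESeq2 scaling (adjusted p = 0.257 and 0.234, exact binomial test), where Gclc joined the higher ones. Glrx was not a call without the read minimum (adjusted p = 0.083) or with Known models only (0.0793, exact binomial test). With spike-in scaling none of the 4 lower calls remained, and 4 partners were higher. With the assumed coefficient of variation of 0.2 (edgeR exact test), no partner and no cysteine relative was a call. Nor was any gene of the synthesis and insertion list.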

How the data were processed

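The authors deposited, per library, whole-number read counts of transcript models and the models' exons on mm10, which per the file headers carry TALON identifiers and classes and rest on GENCODE M21. As to aligner, TALON version and read filters, these were not given in the sources used here. Both tables of deposited counts are neither scaled nor pooled. Exon lengths and positions are per the file headers. The members and lists were chosen with earlier results of these data known.

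Reads were summed per gene over all classes, leaving out spike-ins, and CPM was computed over gene reads. Where a gene's reads summed to at least 20, its level was tested with a two-sided exact conditional binomial test given the gene-read totals. Log2 ratios had 0.5 reads added, and the SE is counting error. Shares had exact Clopper-Pearson 95% intervals and were compared by Fisher's exact test where each library had at least 20. Adjustment was by Benjamini-Hochberg over all genes tested, at 0.05. With 2 libraries of 1 group, edgeR's quasi-likelihood test has no contrast. No molecular identifiers are used, so reads may share a molecule. Intervals, tests and the 3-count limit for 0 reads therefore cover counting error only.

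Models were matched between libraries by chain of introns, and first exons by the donor site that ends them. All 10 genes are named, with each form of at least 5 reads and 5% of its gene in a library. Of each other list except the cell type markers, given as sums, the 4 genes of highest mean CPM and those that passed the test are named, and the remaining named genes were picked after their values were seen. Alternatives were TMM (edgeR 4.0.16), DESeq2 1.42.0 size factors, spike-in reads, other minimums, Known models only and an assumed coefficient of variation of 0.2 in edgeR's exact test. Scripts used Python 3.11.15 and scipy 1.17.1 and were tested on simulated data.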

Additional observations from a re-analysis of the deposited data

How the results depend on the processing

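Calls within the 10 genes rested on the scale and on counting error as the only error. With spike-in reads as the scale, 0 of the 10 were lower, and with the assumed coefficient of variation of 0.2, 1 was higher and 0 lower, against 2 and 2. Over all genes, against 790 higher and 1646 lower, the higher calls numbered 2071 with spike-in reads and 446 with the assumed variation. The lower calls numbered 643 with TMM, 656 with DESeq2 size factors, 170 with spike-in reads and 67 with the assumed variation. Log2 ratios that changed sign with TMM and DESeq2 alike were Gpx3 (0.10) and Selenow (0.02), and Txnrd1 reached 0.00 with TMM. With spike-in reads the sign changed for Gpx3 (0.44), Gpx4 (0.14), Selenow (0.36), Selenof (0.22), Selenot (0.33), Txnrd1 (0.34) and Txnrd2 (0.21). These follow from the shift of the scale. Differences in shares, in percentage points, changed sign among Known models for Gpx3's leading form (1.08 to -0.45) and Gpx4's first exon (-0.13 to 0.23). The Known share changed sign among multi-exon models of Gpx4 (-0.28 to 0.08) and Selenof (0.62 to -0.50). Matching by identifier pooled all unannotated models of a gene. For Txnrd2 it gave 0.75 for that pool, against -4.93 for the leading form alone, so these are different measures. None of these differences was a call. Leaving out either library leaves the level of the other, from 259 to 1927 CPM for Selenop and from 14.8 to 17.8 CPM for Selenot. No paired analysis was possible because there is a single group. At 19 and 14 reads, the depth limits what can be said of Selenot. Among the cell type markers, 4 of 5 adipocyte and 5 of 5 leukocyte genes were higher with TMM or DESeq2 size factors. With spike-in reads 5 of 5 were higher in both lists, and with Known models only 0 of 5 leukocyte genes. With the assumed variation 1 of 6 cortical and 4 of 6 chromaffin genes were lower, and 0 adipocyte or leukocyte genes were higher. The 8 hepatocyte genes stayed higher and the 5 erythroid genes lower in each of these.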
